A study of Homo sapiens with 15 samples.

Results

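Knock-down of Lamin B1 in young fibroblasts was measured by RNA-seq in 6 libraries of the 15 in the series, namely 3 libraries of cells that received a pool of siRNAs against LMNB1 (siLMNB1) and 3 of cells that received a control siRNA. The members were chosen by their labels and not by any measured value. All cells were MRC-5, a normal diploid fibroblast line from human fetal lung, kept at 5% O2 and infected with the empty lentiviral vector pWPIR-GFP, so both groups carried the same virus. RNA was taken at population doubling (PD) 30, 4 days after the siRNA was added. The question was which genes change when a young cell loses the lamin that is known to decline at senescence. The other libraries of the series were young cells expressing TRF2 and senescent cells with either vector. They enter below for the spread of the fit, as a second reference (the young TRF2 libraries) and for 1 comparison. In values set against the young TRF2 libraries, the knock-down and the difference in TRF2 expression cannot be told apart. The effect is that of a single siRNA pool, with no second pool and no rescue, and the labels do not say whether the 3 libraries of a group came from separate cultures, so p-values measure the spread between these libraries.

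The nuclear lamina is the protein mesh under the inner nuclear membrane. It is built of A-type lamins (from LMNA) and B-type lamins (from LMNB1 and LMNB2), and it anchors silent chromatin, nuclear pores and the proteins that link the nucleus to the cytoskeleton. Fibroblasts are the main makers of interstitial matrix in the lung, so genes for matrix, growth control and the nuclear envelope are the natural groups in which to read such an experiment.

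LMNB1 itself was strongly lowered, which checks the labels. The gene (ENSG00000113368.12, chromosome 5, 126776623 to 126837020 on GRCh38, plus strand) had 1947, 1899 and 1871 reads in the control and 75.3, 92.8 and 87.7 in the siLMNB1 libraries, in reads normalized to a common library size. The means were 1906 ± 38.2 and 85.3 ± 8.98 (SD, n = 3), a 22.3-fold fall (log2 fold change -4.48, standard error 0.13, adjusted p = 2.3e-12, edgeR's quasi-likelihood test, adjusted by Benjamini and Hochberg's method across 15799 genes). The groups were far apart. In the text below, a gene rose or fell if its adjusted p in this test was under 0.05, and 16.4% of all genes tested rose and 16.1% fell. Of all genes tested, 29.5% were higher in every siLMNB1 library than in every control library, and 27.9% were lower.

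Other genes of the nuclear envelope moved as well, mostly downwards. Of 25 genes listed for the lamina and envelope, all of them tested and LMNB1 among them, 11 fell and 1 rose, with a median log2 fold change of -0.17 against 0.04 over all genes. LBR, the inner membrane receptor that tethers heterochromatin and also serves in sterol synthesis, had 2765, 2595 and 2700.4 reads in the control and 719, 745 and 741 in the siLMNB1 libraries (log2 fold change -1.87, standard error 0.14, adjusted p = 9.32e-08). TMPO, which encodes the LAP2 proteins that bind lamins and chromatin, had 3019, 2953 and 2770.5 reads in the control and 1411, 1213 and 1321 in the siLMNB1 libraries (log2 fold change -1.15, standard error 0.10, adjusted p = 7.44e-07). Neither gene's groups overlapped. The other lamins changed much less. LMNB2 fell by 0.36 and LMNA fell by 0.37 on the log2 scale (adjusted p = 0.00174 and 0.0174), with 7255, 6954 and 7088 reads in the control and 5202, 5452 and 5919 in the siLMNB1 libraries for LMNB2. TOR1AIP2, a partner of torsin ATPases, fell by 0.65 and SYNE3, a nesprin of the outer nuclear membrane, by 0.84. SYNE1, the giant nesprin-1, was the 1 gene that rose (log2 fold change 0.64, standard error 0.20, adjusted p = 0.0219), a call lost without control library 2 or 3 or siLMNB1 library 1 or 2. The lamin-binding gene EMD and the linker genes SUN1 and SUN2, named after their values were seen, did not pass the test, with log2 fold changes of 0.20, 0.18 and -0.01.

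**Figure D1:**
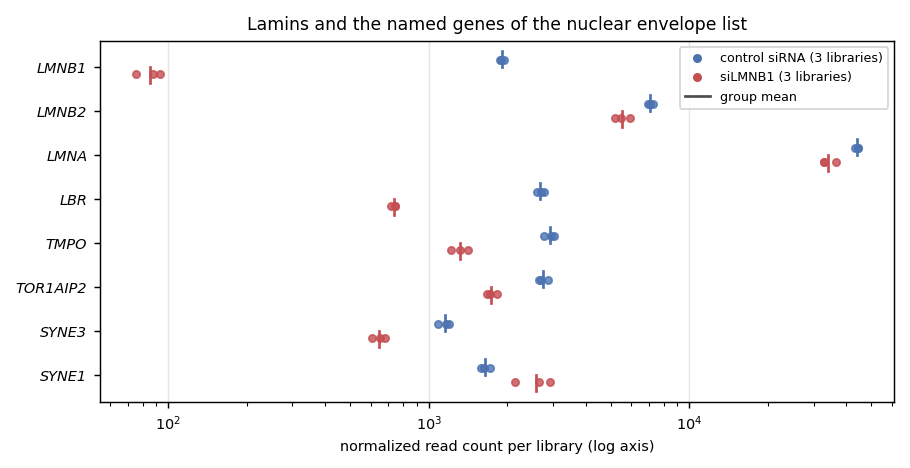
Normalized read count per library, on a log axis, of the lamins and the named genes of the nuclear envelope list (points, 3 libraries per group; short lines, group means). LMNB1 lies between 75.3 and 92.8 in the siLMNB1 libraries and between 1871 and 1947 in the controls, and no gene shown has overlapping groups. Over all genes tested, 29.5% had groups that did not overlap and were higher with siLMNB1, and 27.9% were lower.

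Across the genome the response was broad and nearly balanced. Of 15799 genes tested, 2586 rose and 2551 fell, where 6733 had an unadjusted p below 0.05. A fit of the 6 libraries alone gave 4007 rising and 4012 falling. Differentially expressed genes (DEGs), which here also needed an absolute log2 fold change of 0.58 or more and a protein-coding or pseudogene annotation, numbered 1368 up (9.79% of 13969 such genes tested) and 1183 down (8.47%). Of the DEGs, 607 up and 478 down changed by 2-fold or more, and 189 changed more than 4-fold. The 6 libraries held 26946291 to 43116046 assigned reads. The third siLMNB1 library, the deepest, followed the GC content of genes more than the others (slope 0.13 on the log2 scale per 10 percentage points of GC, against -0.01 to 0.04), and an offset for GC content and length turned the split of DEGs from 53.6% up to 43.3% up. The first control library held 233 reads of KRT5 and 124 of KRT14, basal keratins that were at 0 in the other 5. Of 11 epithelial markers 6 were under 10 reads in every library, and of the 2 tested 1 rose and 1 fell. CLDN4 had 64.6, 42.2 and 51.1 reads in the control and 10.5, 10.9 and 23.8 in the siLMNB1 libraries. EPCAM had 7.79, 9.37 and 10.7 reads in the control and 24.1, 29.6 and 27.4 in the siLMNB1 libraries. Markers of immune cells were near 0 in all 6 libraries, 10 of 11 being under 10 reads in every library. All 13 fibroblast markers were expressed, 6 of them rising and 2 falling. Of 9 endothelial markers 3 were at 0 and none of the 4 tested passed. Their sum, 986 to 1097 reads in the controls and 1366 to 1679 in the siLMNB1 libraries, was nearly all TEK, while the defining marker PECAM1 had 3.34 to 9.50 reads in the controls and 0 in the siLMNB1 libraries.

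Among DEGs with at least 100 reads in the higher group and no overlap between groups, the 12 largest rises were led by ADH1B, an alcohol dehydrogenase, with 27.8, 21.6 and 13.1 reads in the control and 135, 200.4 and 173 in the siLMNB1 libraries (log2 fold change 3.01, standard error 0.29, adjusted p = 1.34e-06). ANKRD1, a cardiac ankyrin repeat protein and a common readout of YAP, had 42.3, 40.3 and 45.1 reads in the control and 245, 239 and 260.2 in the siLMNB1 libraries. IGFBP3, which binds insulin-like growth factors in the extracellular space, had 2182, 2291 and 1881 reads in the control and 11099, 10630.3 and 12485 in the siLMNB1 libraries. All 3 genes were several-fold higher in every siLMNB1 library. POSTN, the matricellular protein periostin, rose from a mean of 2057 to 9947 (log2 fold change 2.27, standard error 0.14, adjusted p = 2e-08). ADAMTS5, an aggrecan-cleaving protease, rose by 2.39 on the log2 scale, and FGL2, a fibrinogen-like secreted protein, by 2.52. The pigment-cell enzyme gene TYRP1 (2.88), SHTN1 (2.32, encoding the axon guidance protein shootin-1), the potassium channel gene KCNJ6 (2.30), the delta-globin gene HBD (2.30), CYTL1 (2.28, a cytokine-like protein) and NCR3LG1 (2.23, a ligand of natural killer cell receptors) completed the set. The smallest adjusted p-values of rising genes also singled out SLC43A2, an amino acid transporter (1.74), PSKH1, a kinase (1.34), BTG2, an antiproliferative gene (1.38), PLTP, which transfers phospholipids (1.33), EFEMP1, the matrix protein fibulin-3 (1.46), and CREG1, a secreted glycoprotein (1.01).

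By the same rule, which asked for 100 reads in the higher group and groups that do not overlap, the largest fall besides LMNB1 was that of HTR7. HTR7, a serotonin receptor, had 132, 107 and 121 reads in the control and 11.5, 11.8 and 7.01 in the siLMNB1 libraries (log2 fold change -3.59, standard error 0.33, adjusted p = 7.99e-07). STC1, stanniocalcin-1, which inhibits the protease PAPPA, had 8442, 8644 and 10409.5 reads in the control and 1297, 1600.4 and 1194 in the siLMNB1 libraries. PTX3, a pattern recognition protein of inflamed tissue, had 11915, 10203 and 9717 reads in the control and 1860.2, 1735 and 1995 in the siLMNB1 libraries. The fall was 12.1-fold for HTR7, 6.72-fold for STC1 and 5.69-fold for PTX3. NIBAN1 (-2.92), the GABA receptor gene GABRA4 (-2.80), WNT7B (-2.75), the urea transporter gene SLC14A1 (-2.50), IFIT2 (-2.45, interferon-induced), the actin regulators WASF3 (-2.46) and TMOD2 (-2.38), and PKIB (-2.36, an inhibitor of protein kinase A) made up the rest. WASF3 shares 38.1% of its exon length with other annotated genes, so its count is less certain. By adjusted p, the most certain falls after LMNB1 were WDTC1, an adipose regulator, with 1638, 1684 and 1638 reads in the control and 363, 373 and 404 in the siLMNB1 libraries (log2 fold change -2.12, standard error 0.08, adjusted p = 9.76e-11), STEAP3, an endosomal metalloreductase (-1.86), CCN3, a matricellular protein (-1.89), DCAF6, a ubiquitin ligase adaptor (-1.31), NSF, the ATPase that recycles SNARE complexes (-1.61), and CHMP3, an ESCRT-III subunit (-2.26).

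**Figure D2:**
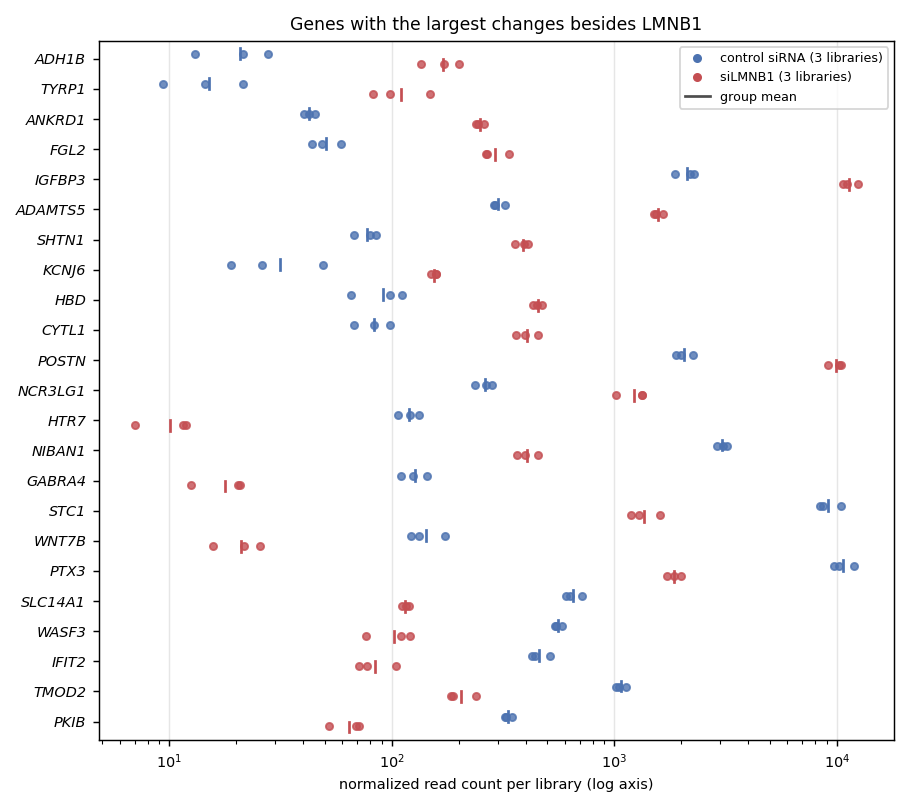
Normalized read count per library, on a log axis, of the 12 genes with the largest rises and the 11 with the largest falls besides LMNB1 (points, 3 libraries per group; short lines, group means). Every gene shown has groups that do not overlap, as the naming rule required.

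Read by function, the listed groups differed widely in how many members moved and in which direction. At the falling end stood the mitosis and DNA replication genes, the cytosolic chaperonin and the nuclear pore, and at the rising end the mitochondrially encoded genes, the lysosome and the collagens. Of the genes named below, ACTA2, TAGLN, HLA-B, HMGCS1, HNRNPA3, IGF2, TGFB2, IL16, NUP88, CCT5 and ITGB3 have exons that overlap neighbouring genes in good part, so their counts are less certain. Each share is to be read against the background of 16.4% rising and 16.1% falling.

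**Figure D3:**
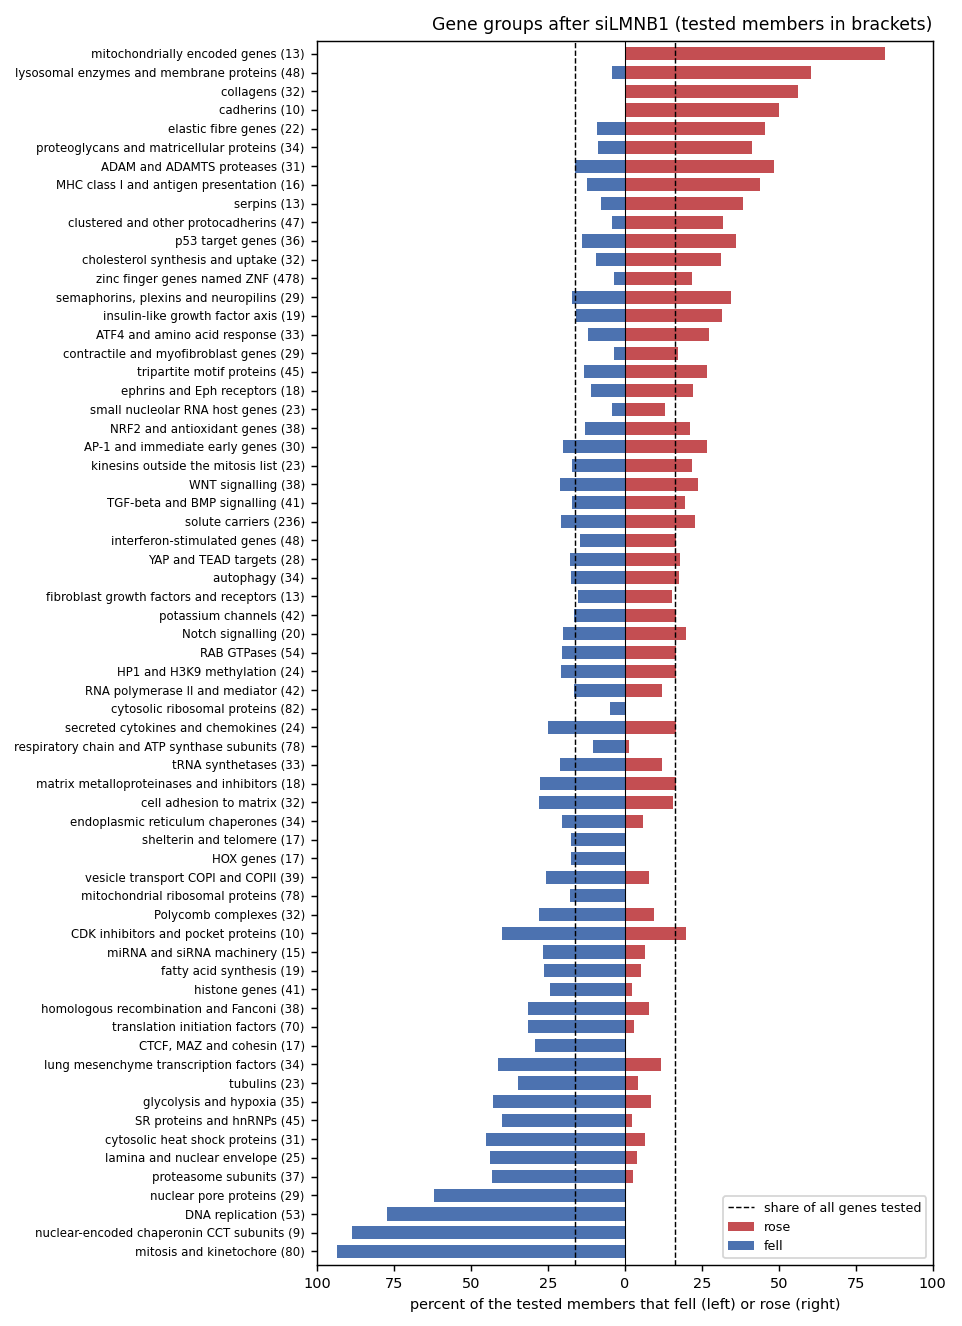
Percent of the tested members of each gene group that fell (blue, to the left) or rose (red, to the right), for groups with at least 9 tested members, whose number is in brackets. Dashed lines give the share of all genes tested, 16.4% rising and 16.1% falling, and mitosis genes lie at one end, with 75 of 80 falling, and mitochondrially encoded genes at the other, with 11 of 13 rising.

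Genes of mitosis fell almost as a whole. Of 80 genes for spindle, kinetochore and mitotic kinases, 75 fell and none rose (fell, 93.8%; background 16.1%), with a median log2 fold change of -0.995. All 80 were expressed and tested. AURKA, the Aurora A kinase of the spindle poles, had 2042, 2119.5 and 1999 reads in the control and 729, 608 and 693 in the siLMNB1 libraries (log2 fold change -1.60, standard error 0.09, adjusted p = 6.6e-09). PLK1, the Polo-like kinase of mitotic entry, had 1675, 1627 and 1609.8 reads in the control and 550.3, 579.5 and 688 in the siLMNB1 libraries. CCNA2, cyclin A2, had 2379.7, 2401 and 2131 reads in the control and 1023, 997 and 1055 in the siLMNB1 libraries. Each siLMNB1 library was below every control library for these 3 genes. CCNB1 and CCNB2, the mitotic cyclins, fell by 0.92 and 0.89, PRC1, which bundles the central spindle, had a log2 fold change of -1.36, and UBE2C, an enzyme of the anaphase-promoting complex, one of -1.20. Measured over whole cultures, fewer dividing cells and less of these RNAs per dividing cell cannot be told apart.

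DNA replication genes fell too, by less. Of 53 genes, 41 fell and none rose, with a median of -0.55, and 22 fell against the young TRF2 libraries. RRM2, the small subunit of ribonucleotide reductase, had 5412, 5246 and 5117 reads in the control and 2054, 2137 and 2295 in the siLMNB1 libraries (log2 fold change -1.28, standard error 0.11, adjusted p = 3.51e-07). CDC6, which loads the replicative helicase, fell by 1.07, GINS4 by 1.04, DUT, which clears dUTP, by 0.94, and DBF4, the activator of the CDC7 kinase, by 0.93. The helicase subunits MCM2 and MCM3 fell by 0.50 and 0.68. Of 38 genes of homologous recombination and the Fanconi pathway, 12 fell and 3 rose (1 without the second control library). FANCI (-1.29), RAD54L (-1.38), FANCD2 (-0.84), RAD51AP1 (-0.78) and FANCA (-0.58) fell and RAD52, FANCF and RAD51D rose by 0.54, 0.51 and 0.43. BRCA1 fell by 0.47, and BRCA2 did not pass the test (-0.44, adjusted p = 0.15).

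The promoters of these genes are known to carry a few short elements, and the windows that hold them are shown for members that fell. The cell cycle genes homology region (CHR), letters TTTGAA, works with a CCAAT box upstream of it in genes of mitosis, and E2F sites, searched as TTTCCCGC or TTTGGCGC, mark genes of replication. In the 250 bases before the annotated start (RefSeq, GRCh38.p14, both strands searched), the CHR letters stood in 31 of the 70 mitosis genes matched by symbol (44.3%) against 8.61% of the promoters of 10712 tested protein-coding genes, and CCAAT in 48 (68.6%) against 34.7%. E2F letters stood in 12 of 46 matched replication genes (26.1%) against 3.01%, and in 4 of 70 mitosis genes (5.71%). A match is a description of letters, not of binding. Capitals mark the searched letters on either strand, and each line runs 5′ to 3′ along the gene.
PRC1 (chr15:90994536-90994608, minus strand): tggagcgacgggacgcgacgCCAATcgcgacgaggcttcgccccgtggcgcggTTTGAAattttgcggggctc
PLK1 (chr16:23678796-23678885, plus strand): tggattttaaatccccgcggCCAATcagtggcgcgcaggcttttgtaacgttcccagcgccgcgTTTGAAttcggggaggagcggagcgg
CDC20 (chr1:43358783-43358950, plus strand): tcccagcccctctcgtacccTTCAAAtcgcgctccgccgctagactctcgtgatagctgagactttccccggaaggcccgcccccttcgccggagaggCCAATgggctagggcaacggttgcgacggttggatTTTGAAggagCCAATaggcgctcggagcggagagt
POLA1 (chrX:24693761-24693808, plus strand): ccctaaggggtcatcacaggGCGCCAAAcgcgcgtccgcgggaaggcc
CDT1 (chr16:88803734-88803781, plus strand): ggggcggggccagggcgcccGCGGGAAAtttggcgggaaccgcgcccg
RFC3 (chr13:33818074-33818121, plus strand): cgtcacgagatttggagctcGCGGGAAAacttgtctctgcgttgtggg

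Those 6 genes were picked in order of adjusted p from members outside chromosome 8 that fell and hold the letters. They were thus named after their values were seen. Their log2 fold changes ran from -1.43 (PLK1) to -0.72 (POLA1). PRC1 has 1 CCAAT box and 1 CHR in the window, in that order along the gene, CDC20 has 2 of each, and the E2F letters of POLA1, CDT1 and RFC3 all lie on the other strand from the gene. Exons of PRC1 overlap other genes over 61.9% of their length, so its count is less certain. CDC20, the activator of the anaphase-promoting complex, had 2354, 2301 and 2184 reads in the control and 971, 978 and 1124 in the siLMNB1 libraries (log2 fold change -1.15, standard error 0.10, adjusted p = 4.84e-07). CDT1, which licenses origins, had 660.0, 587 and 573 reads in the control and 246, 262 and 342 in the siLMNB1 libraries.

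**Figure D4:**
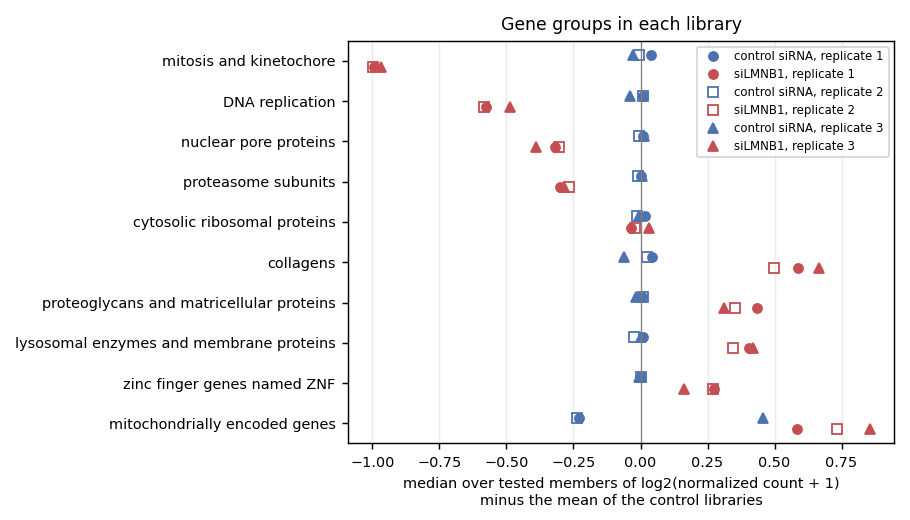
Level of 10 gene groups in each of the 6 libraries, as the median over tested members of log2(normalized count + 1) minus the mean of the control libraries (circles, squares and triangles, replicates 1 to 3; blue, control siRNA; red, siLMNB1). The mitosis genes sit between -0.997 and -0.967 in the siLMNB1 libraries, the ribosomal proteins overlap, and the third control library stands at 0.46 for the mitochondrially encoded genes, nearer to the siLMNB1 libraries than the other controls.

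The inhibitors of the cell cycle did not move as a group. CDKN1A, encoding p21, was already the most abundant of them and had 52668, 53046 and 53582 reads in the control and 59856, 59869 and 60577 in the siLMNB1 libraries, a change that did not pass the test (log2 fold change 0.18, standard error 0.09, adjusted p = 0.126). CDKN2A, encoding p16 and ARF, rose by 0.45 and CDKN2B, encoding p15, by 0.30 (adjusted p = 0.0442 and 0.0349), though CDKN2B turned to -0.08 against the young TRF2 libraries. CDKN1B, encoding p27, fell by 0.86, CDKN2C by 0.89, CDKN2D by 0.67 and RB1, the retinoblastoma gene, by 0.88. CDKN1C, RBL1 and RBL2 did not pass. Leaving out any 1 of the 6 libraries ended at least 1 of the 2 calls for rising inhibitors, and only the fit without the second siLMNB1 library kept 1 of them. Of 36 known p53 targets, 13 rose and 5 fell, with a median of 0.13. SPATA18 (1.05) and TP53I3 (0.97), both of mitochondrial quality control and redox balance, and BBC3, the cell death gene PUMA (0.92), rose, and the RNA-binding ZMAT3 (-1.51) and the death receptor FAS (-1.14) fell. MDM2, the p53 ubiquitin ligase, did not pass (-0.18, adjusted p = 0.362).

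Matrix genes rose in several groups. Of 32 collagen genes tested of 44, 18 rose and none fell, with a median of 0.61. COL3A1, the fibrillar collagen of compliant tissue, had 51435, 50120.0 and 46659.7 reads in the control and 117324, 108111 and 106556 in the siLMNB1 libraries (log2 fold change 1.16, standard error 0.18, adjusted p = 0.00011). COL14A1, which sits on fibril surfaces, had 55.7, 47.8 and 45.1 reads in the control and 188, 225 and 192 in the siLMNB1 libraries. Both groups were separate by a wide margin. The basement membrane chains COL4A1 and COL4A2 rose by 0.94 and 0.72 and COL5A2 by 0.91, whereas COL11A1 (0.55, adjusted p = 0.0744) and COL10A1, with 31.2, 10.3 and 10.7 reads in the control and 10.5, 10.9 and 16.1 in the siLMNB1 libraries, did not pass. SERPINH1, the collagen chaperone HSP47, rose by 0.56. Set against the young TRF2 libraries in place of the controls, 8 collagens rose, so the count depends on the reference group.

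Proteoglycans and matricellular genes followed, with 14 of 34 rising and 3 falling (median 0.43, and 6 rising against the young TRF2 libraries in place of the controls). LUM, the fibril-spacing proteoglycan lumican, had 1705, 1653 and 1582 reads in the control and 5423, 5278 and 5177 in the siLMNB1 libraries (log2 fold change 1.68, standard error 0.15, adjusted p = 5.18e-07). FMOD, fibromodulin, had 166, 162 and 168 reads in the control and 465, 511 and 481 in the siLMNB1 libraries, and DCN, decorin, rose by 0.93. The genes that fell were HAS2, the hyaluronan synthase, with 2232, 2619 and 2615 reads in the control and 543, 520.3 and 476 in the siLMNB1 libraries, SDC2, a syndecan (-1.11), and THBS1, thrombospondin-1 (-0.59). Elastic fibre genes gave 10 that rose and 2 that fell of 22, with ELN, elastin (0.83), LTBP4 (0.87) and LOXL3 (0.80) rising, the crosslinker LOX (-0.47) and LTBP1 (-0.49) falling, and FBN1, fibrillin-1, short of the threshold (0.42, adjusted p = 0.159). Contractile genes showed 5 of 29 rising (17.2%, near the background) and 1 falling. ACTA2, the smooth muscle actin of myofibroblasts, had 1256, 1217 and 1174 reads in the control and 2629, 2641 and 3241 in the siLMNB1 libraries (log2 fold change 1.22, standard error 0.16, adjusted p = 2.82e-05), CNN1, calponin, rose by 0.73, TPM4, a tropomyosin, fell by 0.30, a call lost whichever of the 6 libraries was left out, and TAGLN did not pass (0.23).

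Genes of the ADAM, ADAMTS and matrix metalloproteinase families moved in both directions. The ADAM and ADAMTS group was gathered by gene symbol, so it takes in ADAMTS-like genes such as ADAMTSL4 and ADAMTSL1. Among ADAM and ADAMTS genes, 15 of 31 rose and 5 fell, with ADAM17, the sheddase of TNF (0.94), ADAM12 (0.90), ADAM11 (1.27), ADAMTS7 (0.75) and ADAMTSL4 (1.10) rising and ADAM8 (-1.84), ADAMTSL1 (-1.20), ADAMTS6 (-0.87), ADAM9 (-0.61) and ADAM19 (-0.65) falling. Of 18 matrix metalloproteinases and inhibitors, 3 rose (16.7%, near the background) and 5 fell (27.8%). The collagenase gene MMP1 had 23714, 23391 and 26861 reads in the control and 11931, 12753 and 11089 in the siLMNB1 libraries (log2 fold change -1.05, standard error 0.27, adjusted p = 0.00689), and the gelatinase gene MMP2 did not pass (0.02). MMP11, MMP15 and MMP19 rose by 1.10, 0.95 and 0.63. The inhibitors TIMP3 (-1.04) and RECK (-1.51) fell, as did MMP16 by 0.63 and TIMP4 by 0.79. Among 13 serpins, SERPINE2 (0.85) and SERPINB9 (1.42) were among the 5 that rose, and 1 fell (0 without control library 1 or 2 or siLMNB1 library 2).

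Signalling genes changed in both directions, and in the TGF-beta, Notch and YAP groups the shares lay near the background. In the insulin-like growth factor axis, 6 of 19 rose and 3 fell. IGFBP5, the most abundant of the binding protein genes, had 61087, 57654 and 49115 reads in the control and 136682, 133504 and 145788 in the siLMNB1 libraries (log2 fold change 1.31, standard error 0.22, adjusted p = 0.000281), IGFBP7 rose by 0.88, the receptor IGF1R by 1.04 and the binding protein protease PAPPA by 0.92. The fetal RNA-binding proteins IGF2BP1 and IGF2BP3 fell by 0.99 and 0.67, and IGF2 did not pass (-0.38). In TGF-beta and BMP signalling, 8 of 41 rose and 7 fell, close to the background, and 5 or 6 rose and 4 or 5 fell without any 1 library, down to 5 and 4 without the first control or the second siLMNB1 library. TGFBI (0.68), BMP4 (1.08), the receptor BMPR1B (1.53) and TGFB2 (0.98, a call lost whichever library was left out) rose, and the BMP and activin antagonists NOG (-1.04) and FST (-0.69) fell with SMAD5 (-1.17), a BMP transducer, whereas the ligand TGFB1 did not pass (0.26).

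In WNT signalling 9 of 38 rose (23.7%) and 8 fell (21.1%). The ligands WNT16 and WNT5B and the secreted antagonist SFRP1 fell by 1.24, 1.00 and 1.33, with 89577, 84069 and 80688 reads in the control and 33365, 34232 and 33625 in the siLMNB1 libraries for SFRP1, and the co-receptor LRP5 and the ligand WNT5A rose by 0.72 and 0.53. Notch signalling gave 4 of 20 in each direction (20%), near the background. The ligand JAG1 rose by 0.73 and JAG2, near 0 in the controls, had 4.45, 3.75 and 2.38 reads in the control and 16.7, 33.6 and 33.0 in the siLMNB1 libraries. The target HES1 rose (log2 fold change 1.42, standard error 0.32, adjusted p = 0.00315), and RBPJ, the DNA-binding partner of Notch, had 11556, 11222 and 11206 reads in the control and 4235, 4128 and 3904 in the siLMNB1 libraries and fell by 1.47. NOTCH1 and NOTCH2 did not pass (-0.05 and -0.43). Of 28 targets of YAP and TEAD, 5 rose (3 without control library 2 or 3 or any 1 siLMNB1 library) and 5 fell. Each share was 17.9%, near the background. ANKRD1 rose, as given above, while the YAP partner TEAD1 (-1.16), the receptor kinase AXL (-1.22), the nucleotidase NT5E (-1.18), ASAP1 (-1.41) and WWTR1, encoding TAZ (-0.58), fell. CCN1 did not pass (0.27) and CCN2 rose by 0.45. Immediate early genes split, 8 of 30 rising (5 without the first control library) and 6 falling, with ATF3 (0.72), FOSB (1.08) and EGR2 (1.24, but -0.32 against the young TRF2 libraries) up and FOSL1 (-0.93) and the ERK phosphatase genes DUSP4 (-1.22), DUSP5 (-1.26) and DUSP6 (-0.73) down.

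Lysosomal genes rose as a group. Of 48 tested, 29 rose and 2 fell (rose, 60.4%; background 16.4%), with a median of 0.41. TPP1, a lysosomal peptidase, had 6879, 6864 and 7088 reads in the control and 11950.3, 11826 and 11872 in the siLMNB1 libraries (log2 fold change 0.78, standard error 0.07, adjusted p = 1.23e-06). LGMN, legumain, rose by 0.82, the cathepsin gene CTSO by 0.88, GRN, progranulin, by 0.72, and GLB1, the beta-galactosidase read out by the senescence stain, by 0.44, with 3536, 3136 and 3324 reads in the control and 4744, 4382 and 4442 in the siLMNB1 libraries. ARSB, which cuts dermatan sulfate, was the clear exception with 2017, 1990.1 and 2086 reads in the control and 765, 873 and 752 in the siLMNB1 libraries (log2 fold change -1.35, standard error 0.15, adjusted p = 6.44e-06), and ACP2 fell by 0.26, a call kept only without the third siLMNB1 library. With the young TRF2 libraries as the reference, 16 rose. Genes of autophagy, the route that feeds the lysosome, did not follow, with 6 of 34 rising and 6 falling (17.6% each, near the background).

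Many lysosomal promoters hold a TFEB element, whose core letters are TCACGTG. Windows are shown for 3 genes, picked in order of adjusted p from members that rose and hold the letters. The letters stood in 7 of 31 lysosomal genes matched by symbol (22.6%) against 5.17% of the promoters of tested protein-coding genes, and in 4 of the 17 matched that rose. The same window, build and marking apply as above.
LAMP1 (chr13:113297026-113297237, plus strand): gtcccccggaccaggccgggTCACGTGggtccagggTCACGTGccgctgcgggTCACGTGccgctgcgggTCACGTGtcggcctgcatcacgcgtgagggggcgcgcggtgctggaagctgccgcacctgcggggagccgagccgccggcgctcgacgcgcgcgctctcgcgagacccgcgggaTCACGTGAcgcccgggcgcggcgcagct
NEU1 (chr6:31862922-31862968, minus strand): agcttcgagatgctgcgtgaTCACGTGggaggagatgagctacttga
CTSF (chr11:66568703-66568749, minus strand): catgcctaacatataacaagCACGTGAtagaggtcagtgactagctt

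LAMP1, the main glycoprotein of the lysosomal membrane, had 20468, 19607 and 20022 reads in the control and 27589.6, 25838 and 28396 in the siLMNB1 libraries and rose by 0.45. NEU1, a sialidase, rose by 0.72 and CTSF, a cathepsin, by 0.69. The 3 genes, named after their values were seen, hold from 1 copy of the core to several.

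Genes of antigen presentation and of the interferon response did not move together. Of 16 genes of the MHC class I route, 7 rose (4 without the second control library) and 2 fell. HLA-C had 11329.7, 10151 and 10135 reads in the control and 16869, 15339.7 and 17205 in the siLMNB1 libraries (log2 fold change 0.64, standard error 0.12, adjusted p = 0.000741), HLA-B rose by 0.61, B2M by 0.31, the peptide transporter TAP1 by 0.47, and the trimming enzyme ERAP2 fell by 1.05. The HLA genes share sequence, so reads may be split between them. Of 48 interferon-stimulated genes, 8 rose (5 without the second or the third control library) and 7 fell, each near the background. IFIT1 had 817, 552 and 652 reads in the control and 235, 217 and 242 in the siLMNB1 libraries (log2 fold change -1.54, standard error 0.20, adjusted p = 2.89e-05), USP18 fell by 1.19 and OAS3 by 0.76, TRIM22, STAT2 and UBE2L6 rose by 0.52, 0.48 and 0.46 (STAT2 turned to -0.07 against the young TRF2 libraries), and ISG15 did not pass (-0.28, adjusted p = 0.363).

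Secreted inflammatory factors gave 4 rising (16.7%, near the background) and 6 falling (25%) of 24. CXCL8, interleukin 8, had 373, 626 and 518 reads in the control and 101, 123 and 102 in the siLMNB1 libraries (log2 fold change -2.22, standard error 0.42, adjusted p = 0.000773). IL11 had 853, 1011 and 816 reads in the control and 285, 254 and 222 in the siLMNB1 libraries, and CCL2, the monocyte chemokine, fell by 1.16. IL1B had 49.0, 77.8 and 52.3 reads in the control and 1.05, 7.90 and 3.51 in the siLMNB1 libraries and CXCL5 23.4, 67.5 and 60.6 reads in the control and 6.28, 7.90 and 2.10 in the siLMNB1 libraries. These were all lower after knock-down. IL6 was higher, with 92.4, 60.0 and 67.7 reads in the control and 116, 131 and 125 in the siLMNB1 libraries (log2 fold change 0.76, standard error 0.19, adjusted p = 0.00619), but turned to -0.08 against the young TRF2 libraries. The other genes that rose were IL32 (0.87), TNFSF15 (1.75) and IL16 (0.77, but -0.08 against the young TRF2 libraries).

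Zinc finger genes named ZNF, most of them repressors of the KRAB class, shifted upwards by small amounts. Of 478 tested, 104 rose and 17 fell (11 without the third siLMNB1 library), with a median of 0.25. ZNF302 had 427, 406 and 345 reads in the control and 697, 775 and 739 in the siLMNB1 libraries (log2 fold change 0.91, standard error 0.11, adjusted p = 1.1e-05), ZNF641, ZNF839 and ZNF548 rose by 0.97, 0.93 and 0.89, and ZNF207, a spindle protein, fell by 0.73. On chromosome 19, where ZNF genes lie in clusters, 52 of 234 rose and 5 fell, and elsewhere 52 of 244 rose and 12 fell. Without the first siLMNB1 library 68 rose, and against the young TRF2 libraries 62. Their partner TRIM28, the KRAB corepressor, fell by 0.37 and the histone H3K9 methyltransferase SETDB1 rose by 0.44.

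Of 1641 long non-coding RNAs tested, 251 rose (15.3%, near the background) and 90 fell (5.48%), with a median of 0.28, at low levels (mean of 89.0 reads in the controls against 2394 for protein-coding genes). Protocadherins, neuronal adhesion genes that mostly lie in clusters on chromosome 5, also leaned upwards in the alpha and beta clusters (medians 1.24 and 1.04). In the gamma cluster the median was 0.16. Of 47 protocadherin genes tested, 15 rose (8 without the second control library and 9 without the third) and 2 fell, with 9 of 15 in the beta cluster, 2 of 3 in the alpha cluster and 3 of 23 in the gamma cluster, whose transcripts share exons and so may share reads. PCDHB10 had 15.6, 14.1 and 17.8 reads in the control and 72.2, 44.4 and 44.2 in the siLMNB1 libraries (log2 fold change 1.75, standard error 0.32, adjusted p = 0.000573), PCDHGA3 rose by 1.00, and PCDHGC3 fell by 0.88. Of 10 cadherins, 5 rose and none fell, CDH2, N-cadherin, by 0.81 and CDH4 by 0.72, and CDH10 had 3.34, 3.75 and 7.13 reads in the control and 33.5, 26.7 and 24.5 in the siLMNB1 libraries.

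Of 29 nuclear pore genes, 18 fell and none rose (median -0.37), and 11 fell against the young TRF2 libraries. NUP43, a subunit of the Y complex, had 1085, 984 and 1146 reads in the control and 404, 352 and 342 in the siLMNB1 libraries (log2 fold change -1.55, standard error 0.10, adjusted p = 2.7e-08), and AHCTF1, which seeds pores on chromatin, fell by 0.97, NUP160 by 0.93, NDC1 by 0.88 and NUP88 by 0.50. All but 1 of the 9 genes of the cytosolic chaperonin, which folds actin and tubulin, fell. TCP1 had 9739, 9414 and 9581 reads in the control and 4493, 4268 and 4239.7 in the siLMNB1 libraries (log2 fold change -1.14, standard error 0.07, adjusted p = 1.26e-08), CCT2, CCT3, CCT4, CCT5, CCT6A, CCT7 and CCT8 fell by 0.37 to 0.71, and CCT6B, with 33.4, 41.2 and 17.8 reads in the control and 43.9, 50.4 and 74.3 in the siLMNB1 libraries, did not pass.

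Heat shock genes fell in 14 cases of 31 and rose in 2, and endoplasmic reticulum chaperones fell in 7 of 34 and rose in 2, near the background. HSPD1, the mitochondrial chaperonin, fell by 0.71, HSP90AA1 by 0.59, STIP1 by 0.69 and DNAJB6 by 0.96, HSPA2 and HSPA4L rose by 1.10 and 1.09, and the regulator HSF1 did not pass (-0.01). Of 37 proteasome subunits, 16 fell (27 in a fit of the 6 libraries alone) and 1 rose. PSMD14, the deubiquitinase of the lid, had 4249, 4262 and 4234 reads in the control and 2036, 2143 and 2087 in the siLMNB1 libraries (log2 fold change -1.02, standard error 0.09, adjusted p = 9.29e-07), and the subunit that rose, PSMB9 (0.60, lost without control library 2 or 3 or siLMNB1 library 3), belongs to the immunoproteasome. SR proteins and hnRNPs, the main splicing regulators, showed 18 falling and 1 rising of 45 (0 rising without control library 2 or 3 or siLMNB1 library 1 or 2), with HNRNPA3 (-0.90) and SRSF3 (-0.61) among the falls. Translation initiation factors fell in 22 cases of 70 and rose in 2, one of these an antisense gene that the name pattern took in (EIF1B-AS1), and 0 or 1 rose when any 1 library was left out, 0 without the first control or the first siLMNB1 library. EIF1AX fell by 1.16 and EIF4EBP2, a brake on cap-dependent translation, by 1.18. Cytosolic ribosomal proteins did not follow, with 4 of 82 falling, none rising and a median of 0.01.

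The 13 protein-coding genes of the mitochondrial genome rose in 11 cases, with a median of 0.67. All genes of the mitochondrial genome together held 2.75 to 3.21% of reads in the siLMNB1 libraries and 1.62 to 2.52% in the controls. MT-ND5, a subunit of complex I, had 15623, 14875 and 24728 reads in the control and 34318, 36306 and 40229 in the siLMNB1 libraries (log2 fold change 1.01, standard error 0.25, adjusted p = 0.00605). MT-CO1, of cytochrome oxidase, had 141248, 153964 and 239595 reads in the control and 256654, 292594 and 296536 in the siLMNB1 libraries. The third control library was closest to the knock-down group for both. This count was unstable. It was 11 without the third control library, 2 without the first or the second, 6, 4 and 3 without siLMNB1 library 1, 2 and 3, and 0 against the young TRF2 libraries, whose mitochondrial share was 2.06 to 2.75%. Nuclear genes for respiratory chain subunits showed no such rise, with 1 of 78 rising (COX7A1, 0.61, lost without the first control library). Of those 78, 8 fell (4 without the first control or the first siLMNB1 library). Mitochondrial ribosomal proteins fell in 14 cases of 78 (17.9%, near the background).

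Genes of sugar and lipid use changed selectively. Of 35 genes of glycolysis and the hypoxia response, 15 fell and 3 rose, a count of 1 rising when any 1 library was left out. LDHA, lactate dehydrogenase A, had 35824, 36367 and 36128 reads in the control and 15619.5, 17054 and 15606 in the siLMNB1 libraries (log2 fold change -1.17, standard error 0.09, adjusted p = 1.82e-07), the glucose transporter SLC2A3 fell by 1.28, PDK1, which restrains pyruvate entry into mitochondria, by 1.13 and ADM, adrenomedullin, by 1.10, whereas SLC2A1 did not pass (-0.13). Sterol genes gave 10 rising and 3 falling of 32, and 5 to 7 rose when any 1 library was left out, 5 without the second control or the first siLMNB1 library. HMGCS1 had 2756, 2454 and 2696 reads in the control and 6299, 6311 and 6041 in the siLMNB1 libraries (log2 fold change 1.24, standard error 0.13, adjusted p = 2.24e-06) and TM7SF2, a sterol reductase whose reaction LBR also carries out, had 361, 262 and 333 reads in the control and 794, 876 and 908 in the siLMNB1 libraries, while INSIG1, which retains the SREBP complex, fell by 1.07. Among 19 genes of fatty acid synthesis, 5 fell and 1 rose. SCD5, a desaturase, had 870.4, 886 and 908 reads in the control and 207, 189.6 and 193 in the siLMNB1 libraries, and ELOVL6, an elongase, fell by 1.09. Of 38 antioxidant genes 8 rose (5 without any 1 control library or the first siLMNB1 library) and 5 fell, with HMOX1, heme oxygenase, up by 1.25 and GCLC, of glutathione synthesis, by 0.59.

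Genes of adhesion and of mesenchymal identity fell more often than they rose. Of 32 genes of adhesion to matrix, 9 fell and 5 rose (3 without control library 3 or siLMNB1 library 1 or 3). ITGB1, the shared beta chain of the collagen and fibronectin receptors, had 87978, 83319.6 and 85127 reads in the control and 25657, 24156 and 23835 in the siLMNB1 libraries (log2 fold change -1.80, standard error 0.12, adjusted p = 2.7e-08). ITGA6 and ITGA8 fell by 1.32 and 1.01, PTK2, focal adhesion kinase, by 0.41, and ITGB3 and ITGA11 rose by 0.75 and 0.44 (ITGA11 turned to -0.07 against the young TRF2 libraries). Of 34 transcription factors of the lung mesenchyme, 14 fell and 4 rose (1 or 2 when any 1 library was left out). SOX9 had 2405, 2401 and 2602 reads in the control and 958, 855 and 896 in the siLMNB1 libraries (log2 fold change -1.45, standard error 0.13, adjusted p = 4.34e-07), MEIS2, PRRX1, FOXL1 and FOXP1 fell by 1.16, 1.00, 0.88 and 0.68, TBX2 by 0.58, and STAT3 rose by 0.75 and TCF21 by 0.32. HOX genes fell in 3 cases of 17 (17.6%, near the background), HOXB5 by 1.24.

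Genes near chromosome ends were the region the study had in view. Within 2 Mb of an end, 103 of 946 protein-coding genes and pseudogenes tested were DEGs up (10.9%) and 39 down (4.12%), against 9.64% and 8.79% elsewhere (the mitochondrial genome left out). In the first Mb the shares were 11.7% and 3.56%, and in the second 9.98% and 4.76%. The 3 smallest adjusted p-values among those up, singled out after their values were seen, belonged to SLC43A2, given above, to LMLN, a metallopeptidase gene on chromosome 3 (log2 fold change 1.91, standard error 0.17, adjusted p = 6.45e-07), and to MIDN, midnolin, on chromosome 19 (0.67). Genes near the ends had a higher median GC content (59.2% against 47.1%), whose part in the counts was tested only by an offset. With an offset for GC content and length, 73 were up and 70 down near the ends. Of all 2620 DEGs in that fit, 43.3% were up. Against the young TRF2 libraries 64 were up near the ends, and 50.2% of all 2208 DEGs were up. Both counts up near the ends, 73 and 64, were below the 103 of the main fit. Shares elsewhere were not computed for these settings, so the slightly higher share up near the ends is shown for the main fit only.

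Senescent and young cells that both expressed TRF2 gave a comparison with no library in common with the knock-down. The titles of the senescent libraries carry the word reanalysis and do not explain it. Senescence and whatever that word stands for cannot be told apart. For some genes the gap was extreme, and its cause was not tested. In the mean, 69 genes with over 100 reads in each of the 9 young libraries were more than 50-fold lower in the 6 senescent ones, housekeeping genes such as LDHB (13075 to 24201 against 25.5 to 61.0 reads) and ALDOA among them, and 13 were more than 50-fold higher, so the group medians and group counts below leave these genes out. LMNB1 was lower in both, -4.48 with siLMNB1 and -4.07 in senescence, and the difference between them did not pass its test (adjusted p = 0.064). The mitosis genes had medians of -0.98 and -3.41, and the difference of effects passed the test for 72 of 78 (background 43.9% of the 15717 genes left). The replication genes had medians of -0.55 and -2.07, with 48 of 53 passing. Both groups were lower in both comparisons and less so with siLMNB1.

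The other groups ranged from medians on the same side to medians on opposite sides. Lysosomal genes had 0.41 with siLMNB1 and 0.35 in senescence (33 of 48 differences passing), proteasome genes -0.29 and -0.28 (7 of 37), nuclear pore genes -0.37 and -0.47 (12 of 29) and the chaperonin -0.49 and -0.81 (5 of 9). Collagens had 0.61 and -0.52 (20 of 32). COL3A1 rose by 1.16 with siLMNB1 and stood at -1.89 in senescence (test of the difference, adjusted p = 8.07e-08). POSTN was at -4.93 in senescence against 2.27 (test of the difference, adjusted p = 3.26e-13), and THY1, a fibroblast surface marker named after its values were seen, at 1.60 against -0.61 (test of the difference, adjusted p = 2.93e-09). Histone genes had medians of -0.30 and 1.11 (22 of 41), and cholesterol genes 0.14 and 0.73 (25 of 32). IL6 had 0.76 and -1.09 (adjusted p = 4.41e-05 for the difference), and CDKN1A 0.18 and 0.83 (adjusted p = 0.000436). Over all genes tested, those 82 included, 2586 rose with siLMNB1, of which 1153 (44.6%) also rose in senescence against a background of 28.2%, and 520 (20.1%) fell. Of the 2551 that fell, 1431 (56.1%) also fell, against 30.1%, and 418 (16.4%) rose. Between the log2 fold changes of both comparisons, Pearson's r was 0.20 over the 15799 genes tested.

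**Figure D5:**
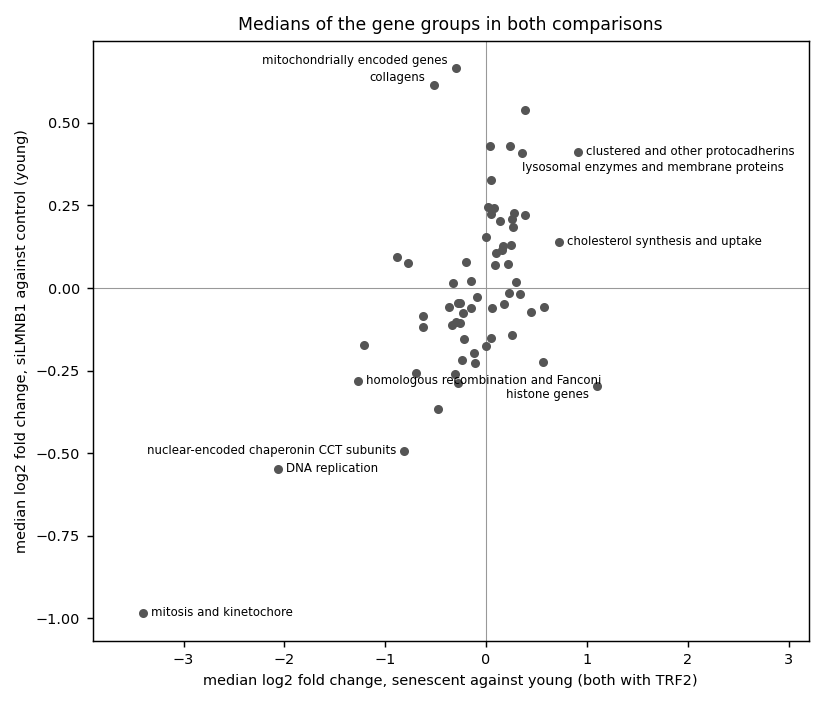
Median log2 fold change of each gene group with at least 9 tested members, in siLMNB1 against control libraries of young cells (vertical axis) and in senescent against young cells that both expressed TRF2 (horizontal axis), without the 82 genes more than 50-fold apart between senescent and young libraries. Mitosis genes lie at -0.98 and -3.41, and collagens lie above 0 on the vertical axis and below 0 on the horizontal one.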

How the data were processed

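RNA-seq reads of MRC-5 cells were trimmed (Trimmomatic) and aligned to GRCh38 with gene counting by STAR by the authors. They deposited the raw read counts per gene, and the annotation release and strand setting are not given in the sources used here. The 15 libraries of 5 groups were fitted together with edgeR 4.0.16 (TMM normalization, filterByExpr, quasi-likelihood test, a mean per group), and p-values were adjusted by Benjamini-Hochberg over the 15799 genes kept of 57272. Normalized counts are reads scaled to a common effective library size. Gene classes, positions and exon overlaps came from GENCODE 44, in which 324 genes of the table were absent. The model was tested on simulated data. The members and gene lists were chosen with earlier results of these data known. Named genes were LMNB1, the 12 largest changes and 8 smallest adjusted p-values per direction, and from each list the first 2 members and up to 5 per direction by adjusted p (all of them in lists of up to 12). Promoters came from RefSeq. Alternatives covered DESeq2, filters, sample choice, GC content and length offsets, a replicate block and leaving out each library. Some genes of the lists are counted but not reported here by name.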

Additional observations from a re-analysis of the deposited data

How the results depend on the processing

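Counted as DEGs with siLMNB1, 2551 genes passed, and 1085 did at an absolute log2 fold change of 1. Of genes passing the test with siLMNB1, rose and fell taken apart, 4007 rose and 4012 fell in a fit of the 6 libraries alone, with 27 proteasome genes falling and 167 zinc finger genes named ZNF, rose. With a replicate block in those 6 libraries 3926 genes fell, 26 proteasome genes fell and 164 ZNF genes rose. In the 9 young libraries 26 proteasome genes fell. Offsets for GC content and length gave 3840 genes falling, 1134 among DEGs with siLMNB1, up, and 1486 among DEGs with siLMNB1, down, and 70 DEGs down within 2 Mb of an end. With the young TRF2 libraries as the control group, 64 DEGs were up within 2 Mb of an end, 22 replication and 11 nuclear pore genes fell, and 8 collagen, 16 lysosomal, 6 proteoglycan, 62 ZNF and 0 mitochondrially encoded genes rose. The cause of these differences was not tested.

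Leaving out each library in turn gave 2263 to 2389 DEGs, 1921 to 2099 genes rising, 2025 to 2121 falling, 68 to 96 ZNF genes rising and 2 to 11 mitochondrially encoded genes rising. LMNB1 stayed between -4.53 and -4.40. The replicate numbers did not pair the libraries (correlations of same-numbered deviations -0.006, -0.039 and -0.009), and the replicate block in all 15 libraries gave 2550 DEGs.

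Log2 fold changes turned in sign for these genes, of which CDKN2B, EGR2, IL6, IL16, ITGA11 and STAT2 had passed the test. Against the young TRF2 libraries, which overexpress TERF2, they were -0.0755 (CDKN2B), -0.32 (EGR2), 0.0345 (HSF1), -0.0812 (IL16), -0.0787 (IL6), -0.0749 (ITGA11), -0.31 (MMP2), 0.0623 (NOTCH1), 0.0857 (RBL1), -0.0708 (STAT2), -2.99 (TERF2). With the GC content and length offsets they were -0.0757 (MMP2), -0.0423 (TERF2). Leaving out 1 library gave -0.72 to 0.27 for COL10A1, -0.0427 to 0.0182 for HSF1, -0.24 to 0.0848 for MAZ, -8.82e-05 to 0.0642 for MMP2, -0.10 to 0.046 for SUN2, -0.00908 to 0.10 for TERF2, none of which had passed.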

Other observations

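Several further gene groups had members on both sides, the potassium channels and RAB GTPases at shares near the background. Of 29 semaphorins, plexins and neuropilins, which guide axons and vessels, 10 rose and 5 fell, with SEMA3B (1.12) and SEMA3E (0.96) up and PLXNA4 (-2.75) and SEMA7A (-1.48) down by edgeR's quasi-likelihood test. Of 42 potassium channel genes 7 rose and 7 fell (16.7% each), KCNH1 (1.56) and KCNK2 (-1.54) among them. Of 54 RAB GTPases, switches of vesicle traffic, 9 rose (16.7%) and 11 fell (20.4%), with RAB33B at 1.05, RAB21 at -1.35 and RAB8A at -1.25. EPHA7, a receptor of ephrins, had 2.23, 6.56 and 11.9 reads in the control and 56.5, 60.2 and 46.3 in the siLMNB1 libraries, and FGF5 fell by 1.05.

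Of 23 tubulins 8 fell and 1 rose (0 rising in each fit without 1 library but that without the third siLMNB1 library), with TUBA1B at -0.74 and TUBB at -0.66. Of 23 kinesins outside the mitosis list 5 rose and 4 fell, near the background. Of 4 metallothioneins tested, 3 fell, MT2A with 30502, 28418 and 28709 reads in the control and 9628, 11128 and 10446 in the siLMNB1 libraries (log2 fold change -1.49, standard error 0.23, adjusted p = 0.000142). Of 41 histone genes 10 fell and 1 rose, with H2AZ1 at -0.85. Of 32 Polycomb genes 9 fell and 3 rose (1 without the second control library), with RNF2 at -1.24 and EZH2 at -0.83. Of 24 genes of HP1 and H3K9 methylation 4 rose and 5 fell, near the background. Among 15 genes of the small RNA machinery, DICER1 fell by 1.26 and AGO2 by 0.75. POLR2A, the large subunit of RNA polymerase II, rose by 0.73. Of 17 genes of CTCF, MAZ and cohesin, 5 fell and none rose, and CTCF and MAZ did not pass (-0.22 and -0.08). Of 17 telomere genes 3 fell, near the background (1 without control library 1 or 3 or siLMNB1 library 1), and TERF2, encoding TRF2, did not pass (0.04).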
